A study of Mus musculus with 2 samples.

Results

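The glutathione, NRF2 and antioxidant enzyme genes of mouse osteoblasts were followed as 1 group of 45 genes. The choice was by name and role, with earlier results of these data known. It covered glutathione synthesis and recycling, the thioredoxin system, superoxide and peroxide removal, NRF2 targets and cysteine breakdown. Of the 45 genes, 42 had at least 1 of 82 probe sets that the array annotation assigns to a single gene symbol. The array held 18193 genes with such a probe set. Primary osteoblasts, differentiated for 10 days, spent a night without serum and then 6 hours in medium conditioned by PC-3 cells or in medium conditioned by MDA-PCa2b cells, both human prostate cancer lines from bone metastases. PC-3 is known for bone-destroying lesions and MDA-PCa2b for bone-forming ones, and the study asked how factors from the lines act on osteoblast transcripts. All cells had been differentiated with ascorbic acid at 50 µg/ml, itself a reducing agent, and beta-glycerophosphate at 10 mM, in alpha-MEM that held fetal calf serum at 10%. Total RNA was measured on 1 Affymetrix array per medium, so no test between the media could be made. The labels give no mouse strain, age or number of animals for the osteoblasts, and the PC-3 sample has a title with the prefix "MDA" although its source description names PC-3. Osteoblasts without tumour-cell medium were not analysed here, so every ratio below is PC-3 medium over MDA-PCa2b medium.

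Cells handle oxidants in linked steps. Superoxide dismutases turn superoxide into hydrogen peroxide, which catalase, glutathione peroxidases and peroxiredoxins remove; glutathione and thioredoxin supply the electrons and are recycled by reductases that use NADPH. The transcription factor NRF2, encoded by Nfe2l2, binds antioxidant response elements in many of these genes, and KEAP1 holds it for degradation, so that its activity is set largely at the level of the protein. In bone, oxidants are known to favour osteoclast formation and to impair osteoblasts.

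The arrays were compared through signals scaled by the authors, in arbitrary units. A signal below the median of its array (57.7 with PC-3 medium and 56.7 with MDA-PCa2b medium) was set to that floor. The brightest probe set stood for its gene. The trimmed mean signal was 300.002 on each array. For 18 bacterial spike-ins the median log2 ratio was 0.03. The beta-actin 3′ signal was 1.504 times the 5′ signal with PC-3 medium and 1.399 times with MDA-PCa2b medium, a measure of RNA integrity. For Gapdh it was 0.722 times with PC-3 medium and 0.734 times with MDA-PCa2b medium. Over the 10649 measured genes, those that exceeded the floor with both media, the median log2 ratio was -0.04 (SD 0.44). Probe sets of the same gene scattered around their mean with an SD of 0.24 on the log2 scale (4924 genes), and with an SD of 0.18 in the 19 members with several measured probe sets. This scatter is between probes on a single pair of arrays, not between cultures. Of 8 osteoblast markers, the 5 with a probe set (Col1a1, Sparc, Ibsp, Alpl and Sp7) were above the floor with both media, with log2 ratios from -0.68 to 0.00. All 10 macrophage and osteoclast markers were also above the floor, with summed signals of 23305 with PC-3 medium and 23011 with MDA-PCa2b medium and log2 ratios from -0.23 to 0.59. The 4 chondrocyte markers were above it too, with summed signals of 8536 with PC-3 medium and 9569 with MDA-PCa2b medium and log2 ratios from -0.48 to -0.10. All endothelial and erythroid markers with a probe set were below it on both arrays. In such bulk RNA, more cells of a type and more RNA per cell cannot be told apart.

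Most of the antioxidant genes gave similar signals with both media, and a few stood far from the rest. Of the 38 measured members, 5 were at least 2-fold higher with PC-3 medium: Xdh, Gsr, Sod2, Hmox1 and Sod3. These made 13.2% of the measured members, where 1.90% of all measured genes were at least 2-fold higher. Only Cdo1 was at least 2-fold lower, 2.63% of the measured members against 1.68% of all measured genes. The group was chosen with earlier results of these data known, so these shares describe it and cannot show an enrichment. The other 32 members had log2 ratios between -0.66 and 0.67, with 21 of them above 0 and 11 below. Over all 38, 26 were above 0, where 44.1% of all measured genes were, and this too cannot show an enrichment. The median over the 38 was 0.10, against -0.04 over all measured genes. The log2 ratio of 21 of the 38 was smaller than the probe set SD of 0.24. At a threshold of 1.5-fold, 7 members were higher, where 5.18% of all genes were, and 2 were lower, where 6.23% of all genes were.

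**Figure D1:**
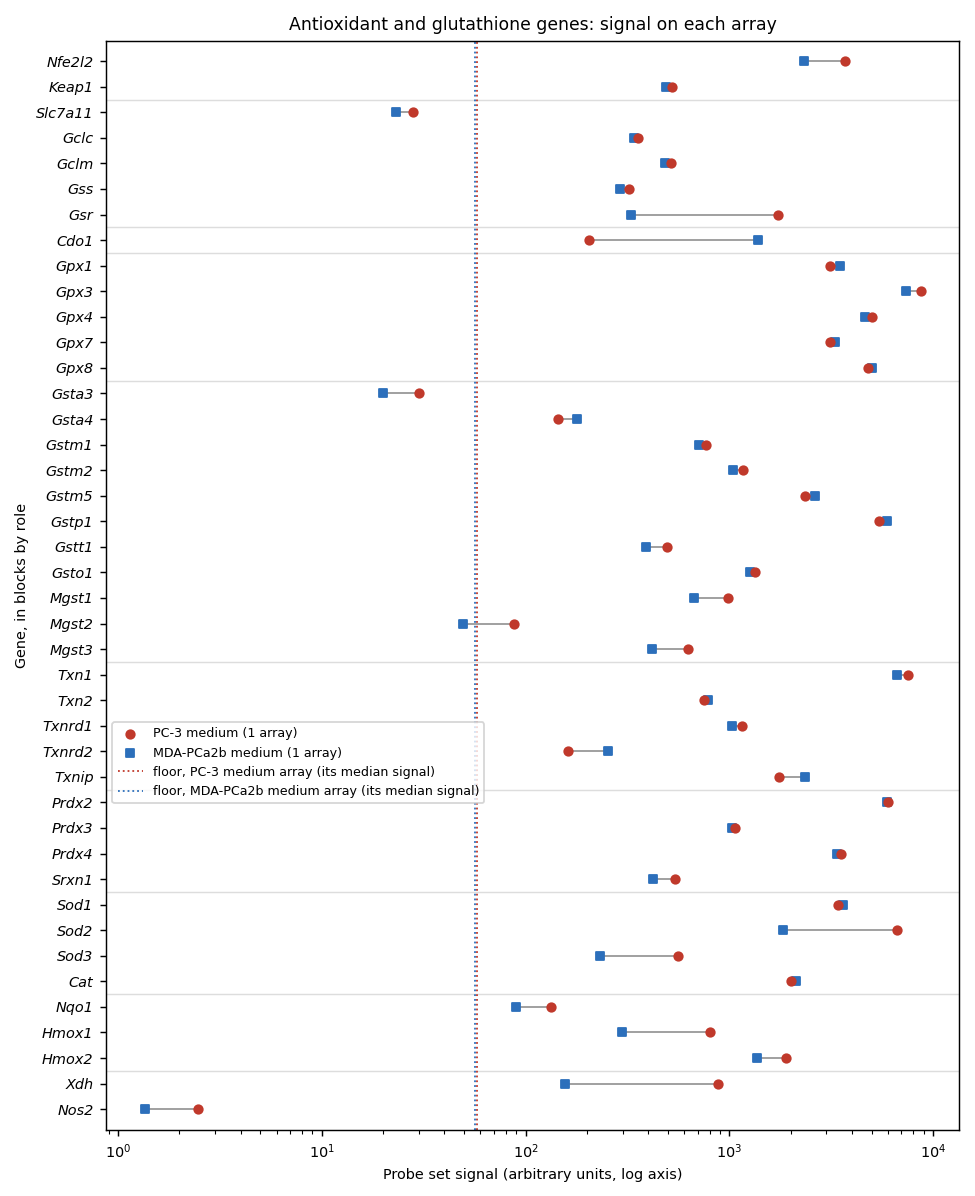
Signal of the brightest probe set of each of the 42 genes with PC-3 medium (red circles) and MDA-PCa2b medium (blue squares), 1 array each, on a log axis in arbitrary units, with genes in blocks by role; dotted lines are the floors at 57.7 and 56.7. Long lines join the points of Gsr, Cdo1, Sod2, Sod3, Hmox1 and Xdh, while the peroxidases and peroxiredoxins have points that nearly coincide.

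The members that were not measured are accounted for as follows. Prdx1, Prdx5 and Prdx6, which encode peroxiredoxins, had no probe set with a single gene symbol and are not described. Slc7a11, the cystine importer gene that feeds glutathione synthesis, gave signals of 28.0 with PC-3 medium and 23.1 with MDA-PCa2b medium, below the floor on both arrays. Gsta3, an alpha-class glutathione transferase gene, was below it as well, at 29.9 with PC-3 medium and 19.9 with MDA-PCa2b medium. So was Nos2, the inducible nitric oxide synthase gene, at 2.48 with PC-3 medium and 1.36 with MDA-PCa2b medium. For these 3 genes no ratio was given. Mgst2, which encodes a membrane-bound glutathione transferase, exceeded the floor with PC-3 medium but not with the other (87.7, against 49.3 with MDA-PCa2b medium) and so was at least 1.55-fold higher.

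Nfe2l2 itself gave a signal of 3718 with PC-3 medium and 2337 with MDA-PCa2b medium, 1.59-fold higher (log2 ratio 0.67). Its second probe set was below the floor on both arrays. Keap1, the inhibitor gene, gave 523 with PC-3 medium and 490 with MDA-PCa2b medium, a log2 ratio of 0.09 by its brightest probe set and 0.24 by the other. The log2 ratio of Nfe2l2 was 2.76 times the probe set SD and that of Keap1 0.38 times. That SD is scatter between probe sets, not between cultures. Nfe2l2 ranked 426 from the top of the 10649 measured genes, whose log2 ratios had an SD of 0.44.

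Glutathione is made from cysteine by the glutamate-cysteine ligase subunits, encoded by Gclc and Gclm, and then by glutathione synthetase, encoded by Gss. Gclc gave 356 with PC-3 medium and 340 with MDA-PCa2b medium. Gclm gave 520 with PC-3 medium and 485 with MDA-PCa2b medium. Gss gave 323 with PC-3 medium and 292 with MDA-PCa2b medium. The 3 synthesis genes thus had log2 ratios of 0.07, 0.10 and 0.14 (Gss), all smaller than the probe set SD, and the second probe sets of Gclc (-0.11) and Gclm (-0.20) pointed the other way. Gsr, whose product glutathione reductase returns oxidised glutathione to its reduced form with NADPH, stood apart from them. Its signals were 1742 with PC-3 medium and 329 with MDA-PCa2b medium by the brightest probe set. Its second probe set gave 1139.6 with PC-3 medium and 192 with MDA-PCa2b medium. The 2 probe sets of Gsr gave 5.29-fold and 5.95-fold higher signals, and the gene ranked 20 from the top among the 10649 measured genes.

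Cdo1, the gene of cysteine dioxygenase, which opens the breakdown of cysteine towards taurine and sulphate, went the other way. It gave 206 with PC-3 medium and 1389 with MDA-PCa2b medium, 6.75-fold lower (log2 ratio -2.75), and ranked 3 from the bottom of all measured genes. A single probe set measured it, so no second reading was available. Among 14 other measured genes of cysteine supply and sulphur amino acid breakdown, none was at least 2-fold different and the median log2 ratio was 0.03. The largest ratios in this list were 0.62 for the neutral amino acid transporter gene Slc1a4 and -0.68 for the thiosulphate sulphurtransferase gene Tst. Csad, whose enzyme acts directly after cysteine dioxygenase on the way to taurine, gave 503 with PC-3 medium and 669 with MDA-PCa2b medium, a log2 ratio of -0.41 (chosen after its value was seen).

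The superoxide dismutases differed among themselves. Sod2 encodes the manganese enzyme of mitochondria and is a known target of NF-kB and inflammatory cytokines. Its brightest probe set gave 6677 with PC-3 medium and 1825.5 with MDA-PCa2b medium, 3.66-fold higher. Its other measured probe sets gave 4.72-fold and 4.63-fold higher signals, and another exceeded the floor with PC-3 medium but not with the other (110, against 38.8 with MDA-PCa2b medium). Sod3, the gene of the secreted copper-zinc enzyme that protects extracellular matrix, gave 562 with PC-3 medium and 233 with MDA-PCa2b medium, 2.41-fold higher, and its second probe set gave 2.39-fold. Sod1, the gene of the cytosolic copper-zinc enzyme, gave 3425 with PC-3 medium and 3600 with MDA-PCa2b medium. Its 4 measured probe sets had log2 ratios from -0.09 to 0.19, while the lowest among the measured probe sets of Sod2 and Sod3 was 1.26. Cat, the gene of peroxisomal catalase, gave 2016 with PC-3 medium and 2128 with MDA-PCa2b medium (log2 ratios of -0.08 and -0.02 by its probe sets).

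The promoter of Sod2 is shown beside that of Sod1, since these are the dismutase genes inside the cell and their ratios differed. Each is the window from 250 bases before to 50 bases after the start site, 300 bases long, written 5′ to 3′ on the gene's strand from RefSeq, build GRCm38.p6 (Sod2 at chr17:13007589-13007888 and Sod1 at chr16:90220512-90220811, both on the plus strand). Capitals mark matches on either strand to the antioxidant response element core TGANNNNGC, the STAT half-site pair TTCNNNGAA, the AP-1 motif TGANTCA or the NF-kB consensus.
Sod2: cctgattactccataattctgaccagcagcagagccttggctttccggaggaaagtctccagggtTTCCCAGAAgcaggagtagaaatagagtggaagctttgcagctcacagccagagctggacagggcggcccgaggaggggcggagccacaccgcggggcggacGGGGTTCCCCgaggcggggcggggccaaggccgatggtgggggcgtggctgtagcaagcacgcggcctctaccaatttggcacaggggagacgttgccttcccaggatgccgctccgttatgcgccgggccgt
Sod1: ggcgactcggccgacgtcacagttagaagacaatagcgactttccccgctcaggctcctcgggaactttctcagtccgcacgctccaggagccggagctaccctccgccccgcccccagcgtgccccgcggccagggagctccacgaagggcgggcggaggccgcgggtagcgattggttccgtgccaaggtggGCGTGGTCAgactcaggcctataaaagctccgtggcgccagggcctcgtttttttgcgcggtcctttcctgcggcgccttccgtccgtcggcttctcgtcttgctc
The Sod2 window holds a STAT match that begins 185 bases before the start site and an NF-kB match that begins 83 bases before it, both read on either strand, and no match to the antioxidant core or AP-1. The Sod1 window holds an antioxidant core match on the minus strand, which spans the bases from 56 to 48 before the start site. Over the promoter windows of 27025 genes, 9.55% held the STAT motif, 9.55% the NF-kB motif, 45.05% the antioxidant core and 8.97% the AP-1 motif, in at least 1 window of the gene. Of the 36 members with a window, 7 held the STAT motif, 5 the NF-kB motif, 15 the antioxidant core and 5 the AP-1 motif; Gsr, Xdh, Hmox1, Sod3 and Cdo1 are not among the 36. Nfe2l2, which itself was 1.59-fold higher, had a core match on its own strand. A match describes these letters and does not show binding.

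**Figure D2:**
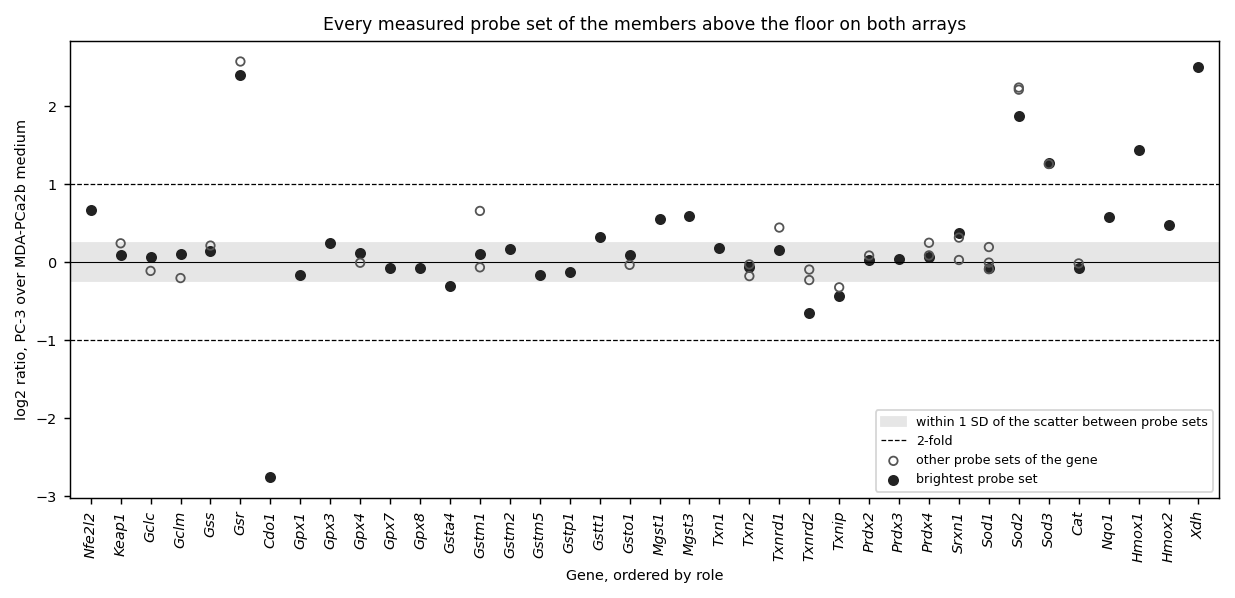
Log2 ratio of PC-3 over MDA-PCa2b medium for every probe set above the floor on both arrays, by gene in order of role (filled, brightest probe set; open, other probe sets); the grey band is the probe set SD of 0.24 and dashed lines are 2-fold. The probe sets of Gsr, Sod2 and Sod3 all lie above 1, and the single probe set of Cdo1 lies at -2.75.

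Haem oxygenases break haem down to biliverdin, iron and carbon monoxide. Hmox1, the inducible form, gave 801 with PC-3 medium and 296 with MDA-PCa2b medium, 2.71-fold higher by its single probe set. Hmox2, the constitutive form, gave 1902 with PC-3 medium and 1369 with MDA-PCa2b medium (log2 ratio 0.47). Nqo1, the quinone reductase gene often used as a reporter of NRF2, was 1.49-fold higher, with signals of 133 with PC-3 medium and 89.3 with MDA-PCa2b medium, not far above the floor. Xdh encodes xanthine dehydrogenase, which completes purine breakdown to urate and in its oxidase form produces superoxide and hydrogen peroxide. It gave 881 with PC-3 medium and 156 with MDA-PCa2b medium, 5.66-fold higher, the highest ratio among the 38 measured members by their brightest probe sets and rank 19 from the top of all measured genes, also by a single probe set. Xdh is also an adipocyte and epithelial gene. Of the adipocyte markers, Fabp4 gave 522 with PC-3 medium and 265 with MDA-PCa2b medium (log2 ratio 0.98), and Adipoq had a log2 ratio of 0.47. Lpl had one of -0.33, with signals of 2107 with PC-3 medium and 2652 with MDA-PCa2b medium. Pparg exceeded the floor with MDA-PCa2b medium but not with PC-3 medium. The summed signals of these 4 markers, most of them from Lpl, were 2806 with PC-3 medium and 3078 with MDA-PCa2b medium. Plin1 and Cfd, also listed, had no probe set with a single gene symbol. The part of these markers in the Xdh difference was not tested.

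Of 8 members known as NRF2 targets (Slc7a11, Gclc, Gclm, Gsr, Txnrd1, Srxn1, Nqo1 and Hmox1, grouped with their values known), 7 were measured and had log2 ratios above 0 by their brightest probe sets, as did 44.1% of all measured genes, while the second probe sets of Gclc and Gclm were below 0. The sizes were far apart. Gsr and Hmox1, 2 of the 7, were at least 2-fold higher, where 1.90% of all measured genes were. A further 3 had ratios below the probe set SD. The range was from 0.07 (Gclc) to 2.40 (Gsr) and the median 0.37. Since the 8 were grouped with their values known, their shares above 0 and past 2-fold cannot be weighed against those of all measured genes. In the separate list of further NRF2 targets, 7 of 20 measured genes were above 0.

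The glutathione peroxidases, which reduce peroxides with glutathione, all lay within 1.5-fold. Gpx3, the secreted plasma form, had the highest log2 ratio, 0.24, with signals of 8694 with PC-3 medium and 7345 with MDA-PCa2b medium. Gpx1, the cytosolic form, had the lowest, -0.16 (3124 with PC-3 medium and 3498 with MDA-PCa2b medium). Gpx4, which reduces lipid peroxides in membranes, had a ratio of 0.12, and Gpx7 and Gpx8, whose products work in the endoplasmic reticulum, had ratios of -0.08 and -0.07. The median of the 5 was -0.07, close to the -0.04 of all measured genes.

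Glutathione transferases couple glutathione to electrophiles. Of 11 listed, 9 were measured and none reached 2-fold. The microsomal forms were the highest of them: Mgst3 gave 629 with PC-3 medium and 419 with MDA-PCa2b medium (1.502-fold), and Mgst1 gave 983 with PC-3 medium and 668 with MDA-PCa2b medium (1.47-fold). With the bound of Mgst2, all 3 microsomal genes lay on the same side, each by 1 probe set. The second probe sets of Mgst1 and Mgst3 were below the floor on both arrays. The soluble forms spread around 0, from -0.30 for Gsta4, whose enzyme clears the lipid peroxidation product 4-hydroxynonenal, to 0.33 for the theta-class gene Gstt1. Between them lay Gstm2 (0.17), Gstm1 (0.11), the omega-class gene Gsto1 (0.09), the pi-class gene Gstp1 (-0.13) and Gstm5 (-0.17). The probe sets of Gstm1 disagreed, with log2 ratios of 0.66 and -0.07 beside 0.11. The mu-class genes have close sequence relatives, so probe sets that can match several transcripts are uncertain for them.

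The thioredoxin system showed small ratios for the cytosolic members and lower signals for Txnrd2 and Txnip. Txn1, cytosolic thioredoxin, gave 7548 with PC-3 medium and 6669 with MDA-PCa2b medium, and its reductase gene Txnrd1 gave 1153 with PC-3 medium and 1034 with MDA-PCa2b medium (log2 ratios of 0.18 and 0.16). A second probe set of Txnrd1 gave 0.44. Txnip, which encodes a protein that binds thioredoxin and blocks it and that responds strongly to glucose, gave 1758 with PC-3 medium and 2367 with MDA-PCa2b medium, 1.35-fold lower, and its second probe set was 1.25-fold lower. Txnrd2, the mitochondrial reductase gene, gave 161 with PC-3 medium and 254 with MDA-PCa2b medium, 1.58-fold lower by its brightest probe set. Its other measured probe sets gave log2 ratios of -0.23 and -0.09, and the mean over its probe sets was -0.33, so the size of this difference rests on 1 probe set. Txn2, mitochondrial thioredoxin, had a ratio of -0.06.

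Peroxiredoxins reduce peroxides with thioredoxin. Prdx2, a cytosolic form, gave 6036 with PC-3 medium and 5931 with MDA-PCa2b medium, and Prdx4, the form of the endoplasmic reticulum, gave 3539 with PC-3 medium and 3367 with MDA-PCa2b medium. Srxn1, which encodes the sulfiredoxin that repairs overoxidised peroxiredoxins, gave 544 with PC-3 medium and 422 with MDA-PCa2b medium, 1.29-fold higher. Its other measured probe sets gave log2 ratios of 0.31 and 0.03. Among 4 members for mitochondrial proteins, grouped with their values known, Sod2 (log2 ratio 1.87) was far from the peroxiredoxin gene Prdx3 (0.04) and Txn2 (-0.06). Txnrd2 was at -0.66 by its brightest probe set and at -0.23 and -0.09 by its other measured ones.

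**Figure D3:**
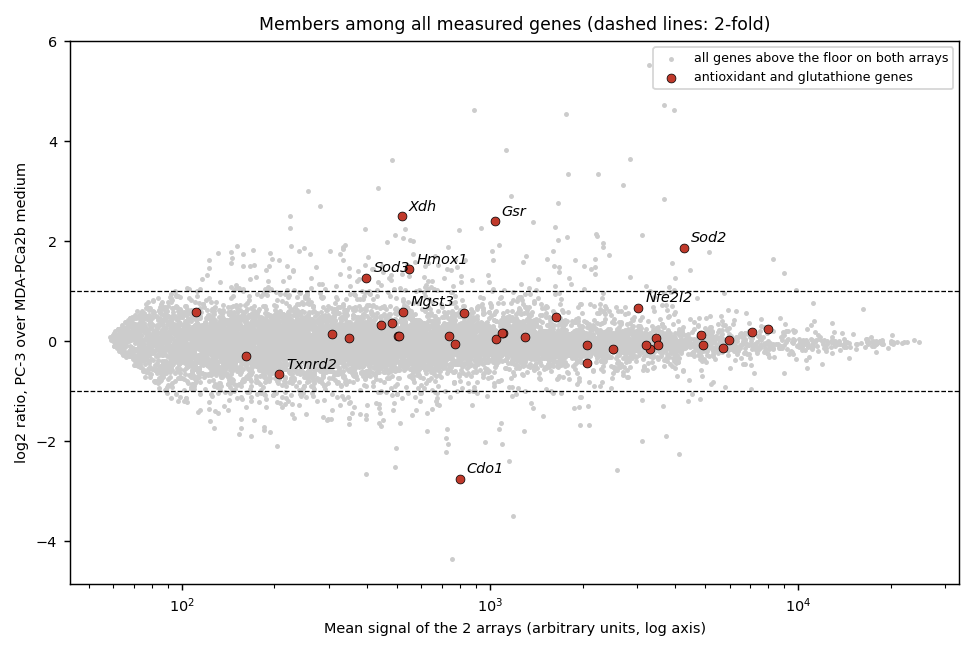
Log2 ratio of PC-3 over MDA-PCa2b medium against the mean signal of the 2 arrays (log axis, arbitrary units) for the 10649 measured genes (grey), with the 38 measured antioxidant and glutathione genes in red and those at least 1.5-fold different named. Xdh, Gsr, Sod2, Hmox1 and Sod3 lie above the 2-fold line and Cdo1 below the lower one, while most members lie in the dense band around 0.

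Genes that work beside the antioxidant members were read from lists of their own. In 9 such lists, 144 genes were measured, of which none was at least 2-fold higher and 3 were at least 2-fold lower, where 1.90% and 1.68% of all measured genes were. The median log2 ratio of the 144 was -0.09. Gch1, described below, was at least 2.69-fold higher as a bound and is outside these counts, and the count of higher genes depended on the floor. The NADPH list holds genes around the supply of NADPH, from which glutathione reductase and the thioredoxin reductases take electrons. Not all of these genes encode enzymes that make NADPH. G6pdx, also listed, had no probe set with a single gene symbol. Of the 13 measured genes in the NADPH list, 2 had a log2 ratio above 0, where 44.1% of all measured genes did, and the median was -0.21. Me2, the gene of a mitochondrial malic enzyme that uses mainly NAD, gave 226 with PC-3 medium and 673 with MDA-PCa2b medium, 2.97-fold lower, and its other probe sets had log2 ratios of -1.71 and -1.57. Pgd, a pentose phosphate dehydrogenase gene chosen after its value was seen, had the highest ratio of the list, 0.29, though its other probe sets ranged from -0.08 to 0.53. Gsr was higher while the NADPH list had a median below that of all measured genes, and NADPH itself was not measured.

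Further NRF2 targets, 20 of them measured, had a median log2 ratio of -0.11, with 7 above 0 and 13 below. The largest were Ugdh, which makes UDP-glucuronate (4423 with PC-3 medium and 2410 with MDA-PCa2b medium, log2 ratio 0.88), and Fth1, the ferritin heavy chain gene (19836 with PC-3 medium and 12659 with MDA-PCa2b medium, 0.65). Among 15 measured partners and competitors of NRF2 the median was 0.06. The largest were the DNA repair gene Brca1 (-0.81), whose product also binds NRF2, and Mafg (0.62, second probe set 0.18), a small Maf partner of NRF2. Bach1, which encodes a repressor of Hmox1 and other such genes, gave 1814 with PC-3 medium and 1221 with MDA-PCa2b medium (0.57, second probe set 1.01), chosen after its value was seen.

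Of 20 measured genes for glutathione breakdown, export and glutaredoxins none reached 2-fold. Glrx, the cytosolic glutaredoxin gene, was highest with 589 with PC-3 medium and 362 with MDA-PCa2b medium (0.70, second probe set 0.76), and Slc25a40, which encodes a mitochondrial carrier, lowest (-0.56). The 8 measured glutathione S-transferase and prostaglandin D synthase genes outside the members had a median of -0.09, and their largest ratio was -0.56 (Gstcd). The peroxidase genes of that list, Gpx2, Gpx5 and Gpx6, were below the floor on both arrays. Among 30 measured selenoprotein, disulphide and methionine sulphoxide repair genes the median was -0.13. Sesn2, a stress-induced sestrin gene, was the one at least 2-fold lower, with 127 with PC-3 medium and 305 with MDA-PCa2b medium by its brightest probe set and a log2 ratio of -0.22 by the other. Txnrd3, the third thioredoxin reductase gene, had ratios of -0.82 and -0.79 by its probe sets (chosen after its value was seen). Txnrd2 had -0.66 by its brightest probe set, but -0.23 and -0.09 by its other measured ones. Txnrd1 had 0.16 by its brightest probe set and 0.44 by its other measured one.

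**Figure D4:**
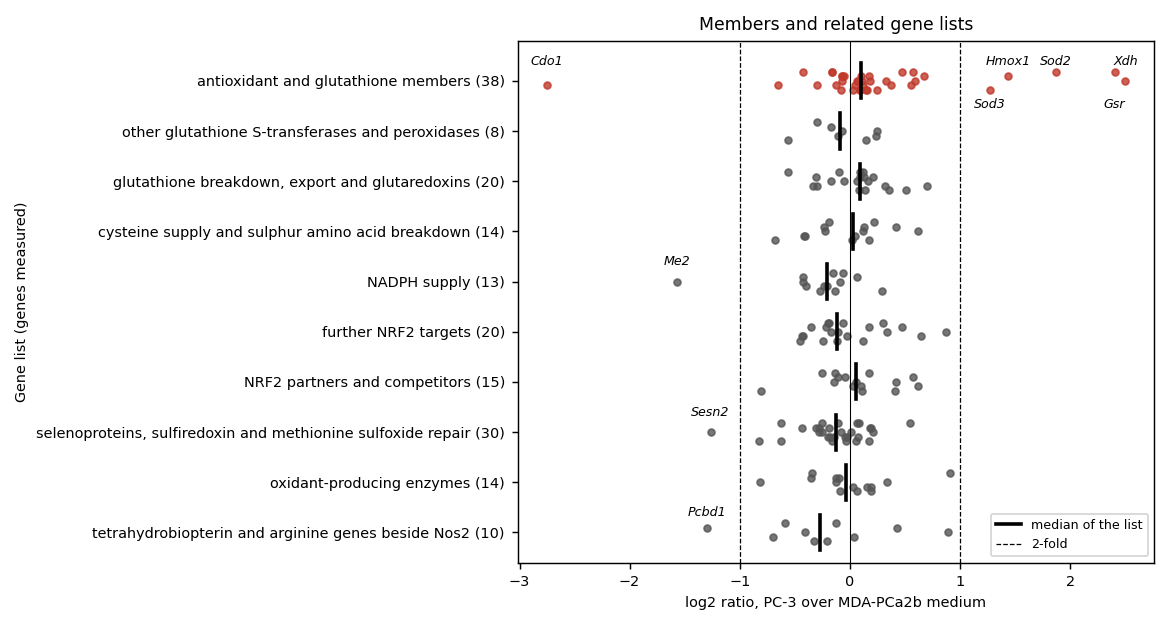
Log2 ratio of PC-3 over MDA-PCa2b medium of each measured gene in the antioxidant and glutathione group (red) and in 9 related lists (grey), with the number measured in brackets, the median as a black bar and 2-fold as dashed lines; genes at least 2-fold different are named. In the related lists the named genes are Me2, Sesn2 and Pcbd1, all to the left, and list medians run from -0.27 to 0.09. Gch1, at least 2.69-fold higher as a bound, is not drawn.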

How the data were processed

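The deposited values are probe set signals, intensity on a linear scale, which the submitters' processing notes trace to GCOS 1.4 and MAS5, run by the authors. Scaling target, background settings and detection calls are not given in the sources used here. Of 45101 probe sets, 64 controls were left out; of the rest 34945 had 1 gene symbol in the platform annotation, 932 several and 9160 none listed, and every column of sample values was used. Groups were taken from the source descriptions.

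Signals under the 50th percentile of their array were set to it before log2; a gene at this floor on 1 array has a bound, and on both no ratio. Each gene was read from its brightest probe set (mean of both arrays). Precision is limited by the number of arrays. With 1 for each medium, counts past 2-fold or 1.5-fold, medians and ranks are descriptions, and no SD, p-value or test between media was possible.

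Members and lists were chosen with earlier results of these data known. All members are accounted for, with both signals for those at least 1.5-fold different, at the floor on an array, or of Nfe2l2 and Keap1; in the related lists those at least 2-fold different or else the 1 or 2 largest are named, and others named beside them were chosen after their values were seen. Older symbols were matched through a RefSeq gene table, used for names. Calculations used Python 3.11.15 with pandas 2.3.3 and were tested on simulated data. Other settings tried were a floor at the 25th or the 75th percentile, log2(signal + 16), quantile normalisation, centring, probe set means, omission of the probe sets marked as shared between transcripts, and 1.5-fold and 3-fold thresholds.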

Additional observations from a re-analysis of the deposited data

How the results depend on the processing

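Of 58 log2 ratios of the 9 members at least 1.5-fold different, recomputed under the alternatives, none changed sign. Of these, 57 moved by less than the probe set SD of 0.24, and the exception was Txnrd2, at -0.33 with probe sets averaged. Many of the 58 could not move. They stayed as they were at the 25th percentile floor, without shared probe sets, and at the 75th percentile floor where still measured. Averaging changed nothing for genes with 1 measured probe set, and centring shifted all ratios by the same amount. Members below the raised floor on an array were left out of the 58. The median of the measured members stayed between 0.10 and 0.15. The counts depended on the floor and the threshold. With the floor at the 75th percentile 2 members, Gsr and Sod2, were measured at least 2-fold higher and 0 lower, where 1.39% and 0.867% of all 6460 genes measured there were, and 0 genes of the related lists were lower; there Xdh (at least 2.95-fold) and Hmox1 (at least 2.68-fold) were higher and Cdo1 (at least 4.63-fold) lower as bounds, while the bound of Sod3 was 1.88-fold. At 3-fold, 3 members were higher (0.742% of all genes) and 0 related genes lower (0.338%). At 1.5-fold, 2 members were lower (6.23% of all genes). Of the 144 measured related genes, 7 were then higher and 11 lower, where 5.18% and 6.23% of all measured genes were. The related genes at least 2-fold higher numbered 4 when the floor was the 25th percentile (3.13% of all genes) and 6 with log2(signal + 16) (2.90%), against 0. Those at least 2-fold lower numbered 2, against 3, with probe sets averaged. No paired analysis was possible because each medium had 1 array.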

Other observations

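Of 10 measured genes of tetrahydrobiopterin and arginine supply, which serve nitric oxide synthases such as Nos2, 1 was at least 2-fold different, with a further 1 as a bound, and the median log2 ratio was -0.27. Gch1, which encodes the rate-limiting enzyme of tetrahydrobiopterin synthesis, gave 153 with PC-3 medium and 49.0 with MDA-PCa2b medium, the second below the floor, and so was at least 2.69-fold higher. Pcbd1, the gene of an enzyme that recycles the cofactor, gave 79.3 with PC-3 medium and 195 with MDA-PCa2b medium (log2 ratio -1.30). The arginine transporter genes Slc7a2 and Slc7a1, chosen after their values were seen, stayed under 2-fold, with log2 ratios of 0.89 for Slc7a2 (0.82 and 0.91 by its other probe sets) and -0.70 for Slc7a1 (-0.45 by the other).

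Among oxidant-producing enzymes other than Xdh, 14 genes were measured and none reached 2-fold. Nox4, a NADPH oxidase gene of mesenchymal cells, gave 127 with PC-3 medium and 67.9 with MDA-PCa2b medium (log2 ratio 0.91), the second close to the floor. Ncf1, which encodes a subunit of the phagocyte oxidase, gave 246 with PC-3 medium and 433 with MDA-PCa2b medium (-0.81, and -0.79 and -0.71 by its other probe sets). Cybb and Cyba, which encode the membrane subunits of that oxidase and were chosen after their values were seen, had log2 ratios of 0.06 and 0.16.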
